A study of Homo sapiens with 11 samples.

Results

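The MYC domain is the stretch of chromosome 8q24 from 126500000 to 129500000 (hg38) that surrounds MYC and its neighbours PVT1 and POU5F1B. Its members here are all CTCF summits that lie in it, chosen by position alone: 19 of 19044 in WT, 35 of 31112 in ORC2 deletion and 18 of 20810 in ORC2 rescue cells. All cells were HCT116 p53-/-, a human colorectal cancer line without p53, so the controls lack p53 too. WT cells carried ORC2, which belongs to the origin recognition complex, the factor that marks where DNA replication can start. ORC2 deletion cells were 1 clone made from these by CRISPR/Cas9, and rescue cells were clones that had received ORC2 on a plasmid. CTCF binding was mapped by CUT&RUN, in which a nuclease bound to an antibody cuts out the DNA around a protein. There were 2 libraries for CTCF and 2 for IgG, the background antibody, in each genotype, except that rescue IgG had 1.

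MYC encodes a transcription factor that drives growth and cell division, and is among the genes most often overexpressed in cancer. It lies in a gene desert, and its transcription depends on enhancers spread over a long distance on both sides. CTCF holds the feet of chromatin loops together with cohesin, and a CTCF site just upstream of the MYC promoter is a known anchor of loops to such enhancers. PVT1 is a long non-coding RNA gene next to MYC whose promoter competes with that of MYC for enhancers. POU5F1B is a retrogene copy of POU5F1, the gene of the stem cell factor OCT4. Several non-coding RNA genes, among them CCAT1, CCAT2, CASC8 and CASC11, lie in the desert and are named for colon or other cancers.

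Each deposited list gives 1 base per peak, the summit, with −log10 q from peak calling as its value. These values are the authors' and are not scaled between lists, so each is given with its rank in its own list, where rank 1 is the highest value. There is 1 list per genotype and none names a replicate. No spread between replicates and no test between genotypes can therefore be given, and every difference below is a description of these lists. The number of reads behind each list is unknown. The domain had 0 summits in each IgG list, out of 34 in ORC2 deletion, 33 in rescue and 17 in WT. The peak lists do not show whether ORC2 itself was lost or restored.

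The deletion list held 1.84 times and the rescue list 0.947 times as many summits in the domain as the WT list. Over all chromosomes these ratios were 1.63 and 1.09, and over the rest of chromosome 8 they were 1.59 and 1.09. The 3 Mb just below the domain held 30 WT, 61 deletion and 32 rescue summits, and the 3 Mb just above held 29, 47 and 37. The genome was tiled into 977 windows of 3 Mb with at least 1 summit, some of them cut short by chromosome ends. Of these, 517 had fewer WT summits than the domain, 594 had fewer deletion summits and 455 had fewer rescue summits. In the 715 windows with 10 or more WT summits, the median ratio of deletion to WT was 1.62, and 167 windows had a higher ratio than the domain. The median ratio of rescue to WT was 1.09, and 154 windows had a lower ratio than the domain. When each list was reduced to its 19044 highest-valued summits, the domain held 19 WT, 20 deletion and 17 rescue summits, and the ratio of deletion to WT was 1.05. This cut sets the whole lists to equal length, so no difference in number remains between them by construction.

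**Figure D1:**
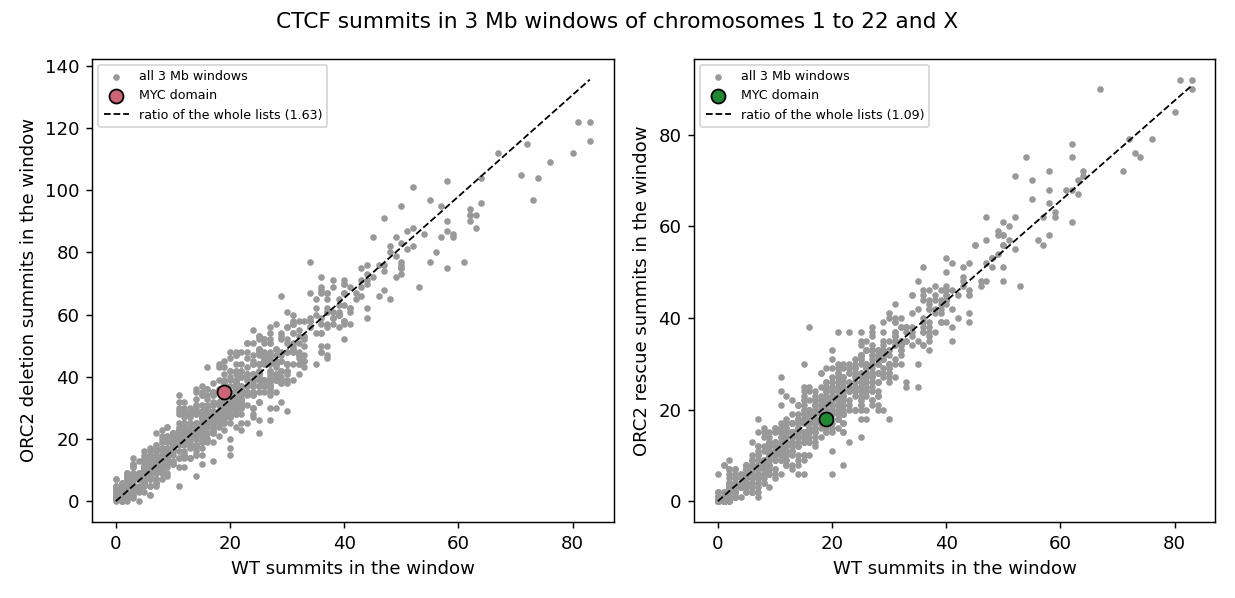
Each grey point is a 3 Mb window, with its number of WT summits on the x axis and of ORC2 deletion (left) or ORC2 rescue summits (right) on the y axis. The domain, with 19 WT, 35 deletion and 18 rescue summits, lies above the dashed line of the whole lists' ratio on the left (1.63) and below it on the right (1.09), inside the cloud of the other windows.

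MYC spans 127735434 to 127742951 and had no summit inside it in any list. RefSeq gives gene spans here and no exons. The site nearest to MYC lay 1471 bp below its lower end in WT (127733963), 1458 bp without ORC2 (127733976) and 1478 bp in the rescue list (127733956). MYC is read towards higher coordinates, so this site is upstream of it. The site coincides with the upper end, at 127733967, of CASC11, a non-coding RNA gene that spans 127700608 to 127733967. Its value was 14.3 in WT (rank 2023), 31.3 in ORC2 deletion (rank 1108) and 11.3 in rescue (rank 4452). It was thus the highest-valued summit of the domain in the deletion list, the second in WT and the sixth in rescue.

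A further site stood inside CASC11, 9643 bp from MYC in WT (127725791), 9651 bp without ORC2 (127725783) and 9639 bp in rescue (127725795). Its values were 11.6 (rank 3256), 22.8 (rank 2541) and 8.93 (rank 6805). The order over the genotypes was the same as at the site next to MYC, with deletion highest and rescue lowest, both by value and by place in the list. The pair stood 8172 bp apart in WT, 8193 bp in deletion and 8161 bp in rescue. The pair held the only summits within 10 kb of MYC in any list. Neither site lay in the authors' up or down regions. No up region anywhere held a WT or rescue summit, and no down region held a deletion summit. The absence of the pair from both is thus how those lists were composed and not a result.

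The summits of the 3 lists fell closer together at this pair than at most shared sites. They spread over 20 bp at the site next to MYC and over 12 bp at the site in CASC11. The median spread of the 14115 sites found in all 3 lists within 500 bp was 102 bp. Spreads of 20 bp or less made up 5.18% of these sites, and spreads of 12 bp or less 2.32%. Over the 12 such sites of the domain the median was also 102 bp. Far below MYC, the site from 126918836 to 126918866 spread over 30 bp, and 9.69% were as tight or tighter. This comparison was chosen after the values were seen, and the sites were not matched for value. The deletion values of the pair, 31.3 and 22.8, were above the genome's median of 13.3 for sites in all 3 lists. Of the 19970 protein-coding genes, 2637 (13.2%) had a summit of each list within 2 kb of one of their ends, as MYC did.

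**Figure D2:**
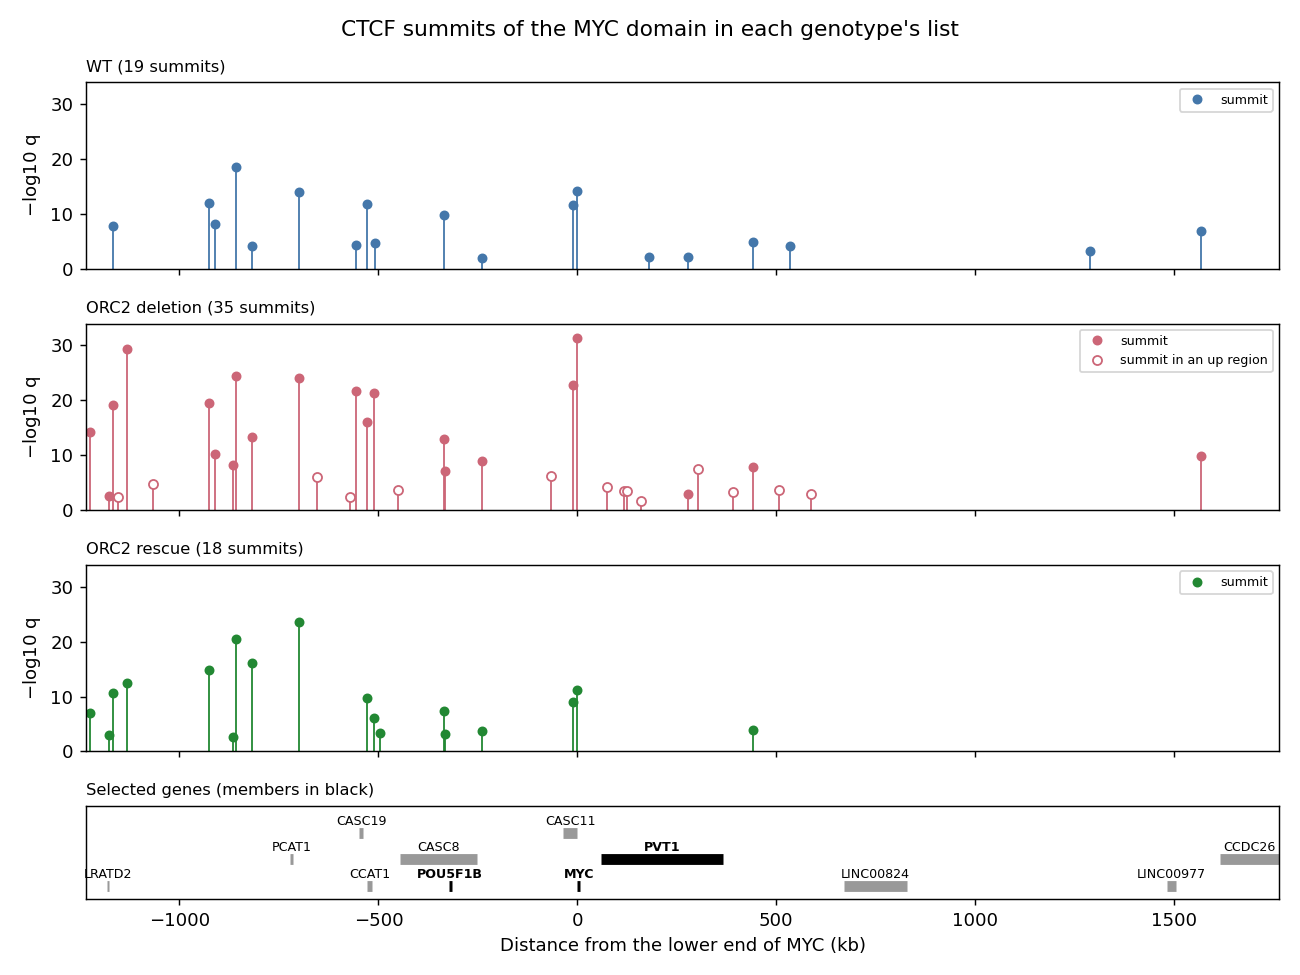
Summits of each list are drawn by their distance from the lower end of MYC in kb (x axis) and their −log10 q (y axis), with open circles for summits in the authors' up regions and bars for selected genes. The pair beside MYC is present in all 3 lists, whereas PVT1 holds 2 WT, 6 deletion and 0 rescue summits.

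PVT1 spans 127794524 to 128101256, and its summits were few and of low value. In WT there were 2, at 127914717 (value 2.25, rank 17970) and 128014653 (2.12, rank 18200), both near the end of the list, at 94.4% and 95.6% of its length. The deletion list had 6. The highest was at 128039974, with a value of 7.44 (rank 16782). It was followed by 127810156 with 4.26 (rank 24749), 127851874 with 3.53 (rank 26913) and 127859634 with 3.48 (rank 27066). The last of them were 128014784 with 2.93 (rank 28547) and 127894703 with 1.62 (rank 30939). The rescue list had none, and its summits on either side of the gene lay 60568 bp below and 76012 bp above it.

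The WT summit at 128014653 and the deletion summit at 128014784 were 131 bp apart. This was the one place in PVT1 where more than 1 list had a summit within 500 bp. The other 5 deletion summits lay in up regions, a list deposited by the authors. Each of its 9603 regions held a summit of the deletion list, and 0 held one of either other list. Among the 19044 highest-valued deletion summits, PVT1 kept 1, at 128039974. PVT1 hosts the microRNA genes MIR1204, MIR1205, MIR1206 and MIR1207, and none of them held a summit.

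Genes within 20% of the length of PVT1, 614 in all, had a median of 1 WT, 2 deletion and 1 rescue summit inside them. Of these, 183 had no rescue summit and 76 had 6 or more deletion summits. Both held for 2 of the 614, PVT1 included. In 373 of them the deletion list had more summits than the WT list, and in 127 the rescue list had fewer. These genes are of many kinds, and the comparison was chosen after the values of PVT1 were seen.

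Between MYC and PVT1 there was no summit in any list. Above MYC the next summit was 171766 bp away in WT and 67205 bp away in ORC2 deletion, both inside PVT1. In rescue it was 434317 bp away, beyond the upper end of PVT1. The summit-free stretch above the site next to MYC was thus 181 kb long in WT, 76.2 kb in deletion and 443 kb in rescue. The median distance between neighbouring summits was 59.5 kb in the whole WT list, 36.1 kb in the deletion list and 52.2 kb in the rescue list. Stretches as long as this or longer made up 20.4% of those in WT, 28.9% in deletion and 5.36% in rescue. These lengths rest on weak summits, since with only those of −log10 q 5 or more they came to 1802 kb in rescue, 1569.5 kb in WT and 306 kb in deletion.

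POU5F1B spans 127413447 to 127417224, inside the non-coding gene CASC8, and had no summit inside it or within 10 kb in any list. The nearest ones lay below it, in CCAT2, which also lies inside CASC8. There 1 site was shared by all lists, at 127400864 in WT (value 9.94, rank 4484), 127400728 in ORC2 deletion (12.9, rank 8511) and 127400882 in rescue (7.37, rank 9002). By place in its list, the WT summit was the highest, at 23.5%, before 27.4% in deletion and 43.3% in rescue. The deletion and rescue lists had a second summit in CCAT2, closer to POU5F1B, where WT had none. It stood at 127402104 in deletion (7.21, rank 17224), 11343 bp from POU5F1B, and at 127401917 in rescue (3.26, rank 17826), 11530 bp from it. Above POU5F1B the next summits were at 127496576 in WT (1.99, rank 18363), 127496689 in deletion (8.96, rank 13902) and 127496568 in rescue (3.75, rank 16625), 79352, 79465 and 79344 bp away. No list had a summit between these places, so POU5F1B sat in an interval of 94.6 to 95.7 kb in each list. With only summits of −log10 q 5 or more, the interval was 325 kb in WT and rescue and 94.6 kb in deletion.

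CCAT1, transcribed from an enhancer-rich stretch upstream of MYC in colorectal cancer, spans 127207382 to 127219268 and had a site on either side. The lower one stood at 127207012 in WT (value 11.8, rank 3119), 127207191 in ORC2 deletion (16.0, rank 5725) and 127207053 in rescue (9.67, rank 5920), 191 to 370 bp outside the gene. The upper one stood at 127225675 in WT (4.79, rank 12362), 127225554 in deletion (21.4, rank 3017) and 127225514 in rescue (6.01, rank 11548). At the lower site the WT summit had the highest place in its list, at 16.4%, against 18.4% and 28.4%. At the upper one, 6246 to 6407 bp outside the gene, the deletion summit was placed first, at 9.70% of its list against 64.9% in WT and 55.5% in rescue. A site 8905 to 8962 bp below CASC19 showed the same difference between WT and deletion. It had 4.32 in WT (127178823, rank 13451) and 21.7 in deletion (127178880, rank 2880), and rescue had no summit there. The rescue list had its only summit not shared within 500 bp at 127239662 (3.41, rank 17372), 4975 bp below CASC21.

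The highest-valued summits of the WT and rescue lists lay farther below MYC, where the long non-coding gene LOC105375751 fills most of the stretch from LRATD2 to PCAT1. The site at 126876724 was the first of the domain in WT (18.5, rank 1036). It had 24.5 in ORC2 deletion (126876701, rank 2164) and 20.5 in rescue (126876659, rank 1196), and its place in the 3 lists lay between 5.44% and 6.96%. A site between PCAT1 and PCAT2 was the first in rescue (127035219; 23.5, rank 847), with 14.0 in WT (127035205, rank 2095) and 24.2 in deletion (127035294, rank 2228). The site at 126810219 had 12.1 in WT (rank 2973), 19.5 in deletion (126810256, rank 3741) and 14.8 in rescue (126810127, rank 2602). In each list these sites stood within the first 15.6% by rank.

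Other sites of this stretch differed more between the lists. At 126918866 the WT summit had 4.17 (rank 13803), against 13.3 in ORC2 deletion (126918836, rank 8035) and 16.1 in rescue (126918853, rank 2141). At 126567135, above LRATD2, WT had 7.78 (rank 6921), deletion 19.2 (126567232, rank 3937) and rescue 10.6 (126567210, rank 4988). The site at 126824468 had 8.29 in WT (rank 6262) and 10.2 in deletion (126824376, rank 12000), and was not in the rescue list. A further high-valued site was one that WT lacked. It stood at 126603896 in deletion (29.4, rank 1307), the second highest of the domain there, and at 126603882 in rescue (12.4, rank 3707).

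Altogether 5 of the 39 sites joined within 500 bp were in the deletion and rescue lists and not in WT, 12.8% against 13.0% of all such sites in the genome. They were the one in CCAT2 and 4 in the stretch below PCAT1. Beside the one at 126603896, they stood at 126510501 in ORC2 deletion (14.3, rank 7086) and 126510343 in rescue (6.95, rank 9748), and at 126869601 in deletion (8.23, rank 15213) and 126869679 in rescue (2.61, rank 19216). The last was at 126558683 in deletion (2.65, rank 29399) and 126558807 in rescue (2.995, rank 18406), just above the end of LRATD2, the only protein-coding gene of the domain besides MYC and POU5F1B. None of these deletion summits lay in an up region. No up region anywhere held a rescue summit, so this mostly follows from how that list was composed.

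**Figure D3:**
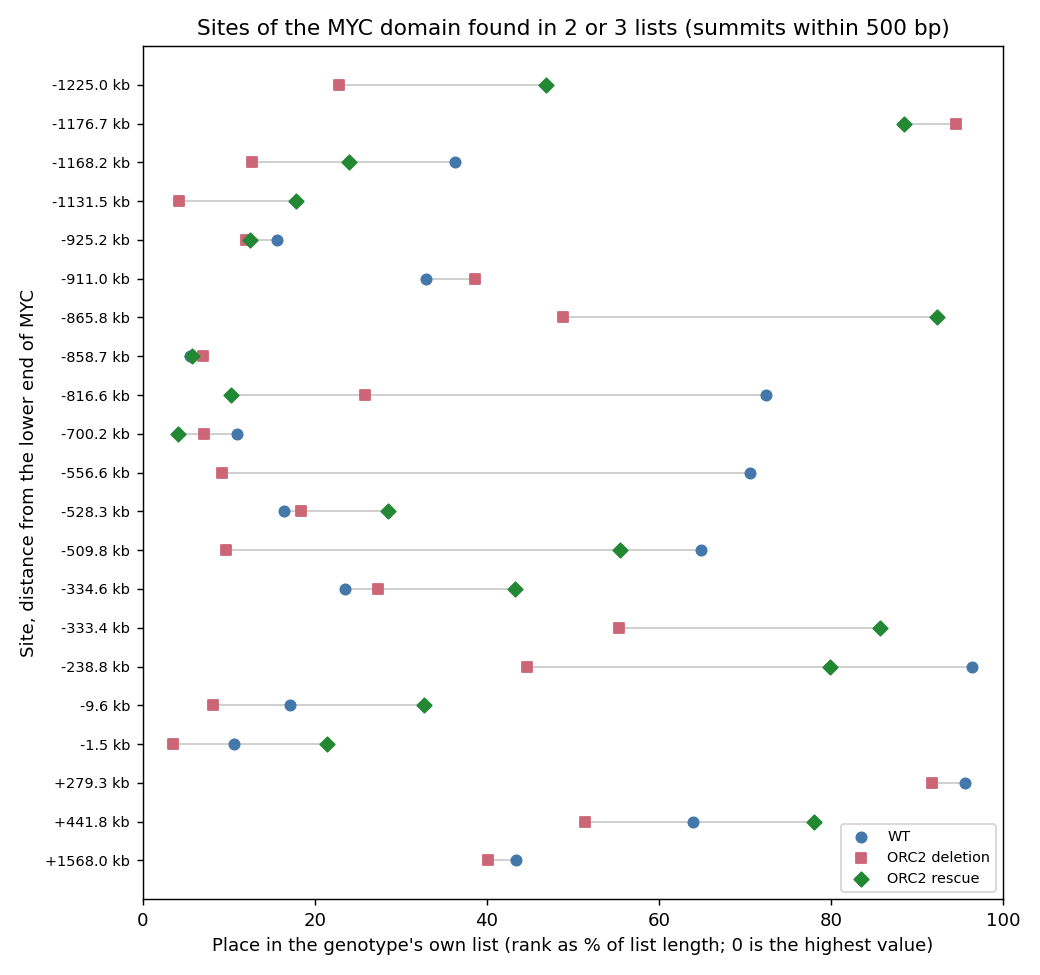
Each row is a site of the domain found in 2 or 3 lists, named by its distance from the lower end of MYC, and each marker gives its rank in 1 genotype's list as a percentage of that list's length, with 0 the highest value. At the pair beside MYC (-9.6 and -1.5 kb) deletion is placed first and rescue last, while at -858.7 kb all 3 lists lie between 5.44% and 6.96%.

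Above PVT1 the summits were sparser than inside it in WT (2.86 against 6.52 per Mb) and ORC2 deletion (3.57 against 19.6 per Mb). Rescue had 0 inside PVT1 and 0.715 per Mb above it. One site above PVT1 was in all lists, at 128177161 in WT (value 4.89, rank 12187), 128177206 in ORC2 deletion (7.84, rank 15987) and 128177268 in rescue (3.92, rank 16229), inside LOC124902020. Near the top of the domain, a site was found at 129303459 in WT (6.88, rank 8251) and 4 bp away, at 129303463, in deletion (9.84, rank 12479), and was not in the rescue list. WT alone had summits at 128269738 (4.15, rank 13842) and 129023953 (3.36, rank 15477). After 128177268 the rescue list had no summit for 1359 kb, up to 129536142. Stretches at least as long made up 1.24% of those in the rescue list. The longest stretch of the domain without a summit was 754 kb in WT and 980 kb in deletion, and stretches at least as long made up 3.01% and 0.962% of those in these lists.

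The summits were thus unequally spread around MYC. Below it lay 13 WT, 24 deletion and 17 rescue summits, with median values of 9.94, 13.1 and 8.93. Above it lay 6, 11 and 1, with values from 2.12 to 6.88 in WT and from 1.62 to 9.84 in ORC2 deletion, and 3.92 for the single one in rescue. Every WT and rescue summit above MYC had a lower value than the pair beside it in the same list, and so had every deletion summit. By section, LRATD2 and its surroundings up to PCAT1 held 5 WT, 11 deletion and 8 rescue summits, and PCAT1 to CASC8 held 5, 9 and 6. From there to CASC11 there were 1, 2 and 1.

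**Figure D4:**
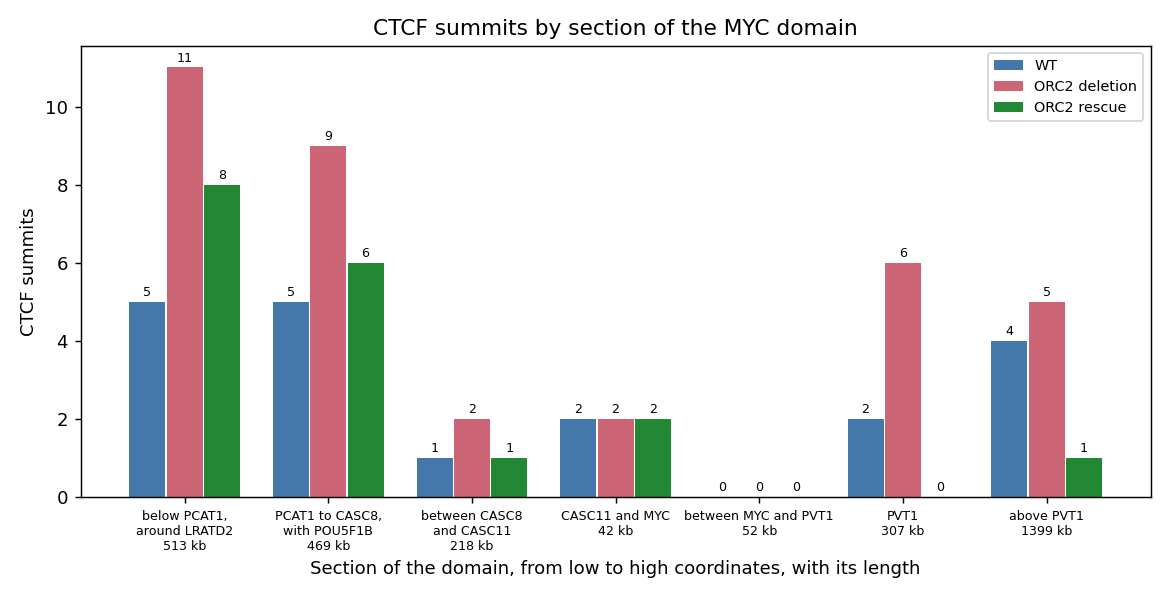
Bars count the summits of each list in 7 consecutive sections of the domain, with the section's length under its name. CASC11 and MYC hold 2 summits in every list, PVT1 holds 2, 6 and 0, and the 1399 kb above PVT1 hold 4, 5 and 1.

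Whether a WT site was also called without ORC2 depended on the distance allowed. Within 100 bp, 11 of the 19 WT summits (57.9%, 95% Wilson interval 36.3 to 76.9, which covers counting error only) had a deletion summit, against 60.6% of all WT summits. A rescue summit lay within 100 bp of 10 of the 19 (52.6%, 31.7 to 72.7), against 51.1% of all. Both counts were near those of the whole lists. Within 500 bp the deletion share was 84.2% (62.4 to 94.5) and the rescue share 63.2% (41.04 to 80.9), against 89.5% and 76.2% of all WT summits. The 3 WT summits without a deletion summit within 500 bp were those at 127914717 in PVT1 and at 128269738 and 129023953 above it, none of which had a rescue summit either.

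Summits of the 3 lists joined within 100 bp of one another made 47 sites in the domain. Of these, 8 were in all 3 lists (17.0%, 8.89 to 30.1), against 20.0% of the 43812 sites of the genome. The deletion list alone gave 21 (44.7%, 31.4 to 58.8), against 32.8%. Joined within 500 bp there were 39 sites, 12 of them in all 3 lists (30.8%, 18.6 to 46.4) and 14 in the deletion list alone (35.9%, 22.7 to 51.6), against 40.6% and 27.3%. The genome's share lay inside the domain's interval in each case.

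All 8 sites in the 3 lists had a higher value in ORC2 deletion than in WT, which held for 89.0% of such sites in the genome. By place in the list, 7 of the 8 stood higher in deletion, with the exception of 126876724, against 70.7% in the genome. Joined within 500 bp, 9 of 12 such sites did (75.0%), against 70.6% in the genome. Place depends on the list too, since further weak summits move the others up. In rescue, 5 of the 8 had a higher value than in WT (62.5%, against 59.5% in the genome). The 3 with a lower one were the pair beside MYC and the site at 128177268. The direction at the 8 sites was thus that of most sites in these lists.

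The authors' up list had 14 regions in the domain and the down list 0, of 9603 and 364 in all. Each up region held 1 deletion summit, 14 of the 35 (40.0%, 25.6 to 56.4), against 30.9% of all deletion summits. With 10 or more WT summits in a window, 91 of the 715 windows of 3 Mb had a larger number of up regions per deletion summit. The values in up regions ran from 1.62 to 7.44 with a median of 3.57. In the genome, sites in the deletion list alone had a median of 4.36. Sites of the domain in all 3 lists within 500 bp had deletion values from 7.84 to 31.3 with a median of 19.4, against 13.3 in the genome. No region of the up list anywhere has a summit of the other genotypes, so their absence there is how the list was composed and not a result.

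Besides the 5 in PVT1, up regions lay at summits below and above it. In PCAT2 and PRNCR1, non-coding genes that overlap there, the summit at 127080785 had 6.04 (rank 19893), and in LOC105375754, the region nearest to MYC, the one at 127668797 had 6.28 (rank 19384), 66637 bp below MYC. The summit at 126667817 had 4.83 (rank 23043) and that at 126579829 had 2.46 (rank 29759), both in LOC105375751. Inside CASC21 the summit at 127283424 had 3.61 (rank 26708), and 23822 bp below CASC19 the one at 127163963 had 2.41 (rank 29856). Above PVT1 stood 128127448 with 3.25 (rank 27708), 128242360 with 3.78 (rank 26212) and 128322991 with 2.94 (rank 28488). Of the 14, only the one at 128039974 in PVT1 was among the 19044 highest-valued deletion summits.

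The limits of the domain were set by position alone. Below it stood summits at 126383964 in WT (16.0), 126383976 without ORC2 (23.9) and 126384002 in rescue (13.9), about 116 kb outside. The first inside were 126567135 in WT, 126510501 in deletion and 126510343 in rescue. Above it the next WT summit stood at 129687629 (6.49). In deletion the next was 129536104 (10.4), and in rescue 129536142 (6.10).

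MYC acts in a network of related factors, and 12 other genes of it were looked up with a margin of 10 kb. MYC had 2 summits in each list by this count. Of the 12, 11 had a summit in ORC2 deletion, 10 in WT and 9 in rescue, and 9 had one in all lists. Of the 19970 protein-coding genes, 12724, 10075 and 10382 had one in these lists and 8698 in all. The deletion list had more summits than WT at 5 of the 12, against 37.6% of all protein-coding genes, and fewer at 0, against 4.27%. The 5 were MXI1 with 1 in WT, 5 in deletion and 3 in rescue, MXD4 with 0, 2 and 0, MGA with 1, 2 and 2, and MAX and MLXIPL, each with 1, 2 and 1. MAX is the partner with which MYC binds DNA, MXI1 and MXD4 compete with MYC for MAX, and MLXIPL is the glucose-responsive factor ChREBP.

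The highest value near MGA, a repressor that also pairs with MAX, was 2.84 in WT (rank 16709), 21.6 in ORC2 deletion (rank 2939) and 11.3 in rescue (rank 4458). At MAX it was 8.62 (rank 5872), 15.3 (rank 6285) and 12.4 (rank 3722). The highest values of a gene need not lie at the same site in each list. MNT, another antagonist of MYC, had 10.6 in WT (rank 3989) and 5.81 in deletion (rank 20536), and no rescue summit. MYCL had 1 summit in each list, and MYCN, the paralogue active in neuroblastoma, had none. The deletion value of 31.3 beside MYC was above that of every other gene of the network, where 24.2 at MLXIP was the highest. In WT the 14.3 beside MYC was also the highest, before 12.1 at MLXIP. In rescue, MLXIP with 19.6 and MAX with 12.4 had higher values than MYC with 11.3.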

How the data were processed

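CTCF and IgG CUT&RUN of HCT116 p53-/- cells gave 6 deposited summit lists and 2 lists of regions. Per the submitters' processing notes, FastQC 0.11.5, Bowtie2 2.2.9, SAMtools 1.12 and MACS2 were used with hg38. How peaks were called, against which control and on which libraries is not given in the sources used here. In the deposited lists the value of a summit is the −log10 of its q. The authors' up and down regions carry no value.

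Positions are 1-based. Summits were matched within 100 bp, or 500 bp to name places. Genes came from RefSeq (GRCh38.p14), without exons, and 41 entries overlapped the domain. All summits of the domain are given; other genes are named where a site lies in or next to them. The members, lists and alternatives were chosen with earlier results of these data known. Matching and joining were checked on simulated lists. Software was SciPy 1.17.1, pandas 2.3.3, NumPy 2.4.6 and matplotlib 3.10.9 under Python 3.11.15. No DNA sequence is shown.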

Additional observations from a re-analysis of the deposited data

How the results depend on the processing

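No value of the domain has a replicate check, and the depth of the lists is unknown. No paired analysis was possible because the lists carry no replicate numbers, which also kept single replicates from being left out. Of 62 alternative values for the counts, ratios and shares, 44 stayed within 1.5 times the main count or ratio or within the main interval, and 18 moved. With −log10 q of at least 5 there were 10 WT and 22 deletion summits, 80% of WT summits had a deletion summit and 80% a rescue summit within 100 bp. The same counts and shares over the whole lists are not given here, so these values have no comparison with the genome. With at least 10 there were 6 WT, 14 deletion and 7 rescue summits, 83.3% of WT summits had a deletion summit, and 4 sites were in all lists with a higher deletion value. The whole lists held 4433 WT, 12236 deletion and 5564 rescue summits of at least 10. These were 23.3%, 39.3% and 26.7% of each list, against 31.6%, 40.0% and 38.9% in the domain. The ratio of deletion to WT at this threshold, 2.33 in the domain, was thus below that of the whole lists. With equal list lengths the deletion list had 20 summits in the domain, 1.05 times as many as WT, and 21.9% of sites were in deletion alone. With 2 Mb on either side of MYC rescue had 29 summits. At 50 bp 7.41% of sites were in all lists, 4 of them with a higher deletion value. At 500 bp 30.8% were in all lists, and 84.2% of WT summits had a deletion summit. By rank within the domain, 3 of the 8 sites in all lists stood higher in deletion than in WT. These ranks run over 19 summits in WT and 35 in deletion, so they are not on the same scale. The site at 126567135 had rank 9 in both. With −log10 q of at least 5, PVT1 had no WT summit within 60561 bp and the rescue summit nearest to POU5F1B was 12565 bp away.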

Other observations

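POU5F1B belongs to the POU family of homeodomain factors, and 14 of its relatives were looked up, a list that leaves out POU1F1. Of these, 7 had a CTCF summit within 10 kb in each list and 7 had none in any, against 8698 and 6569 of the 19970 protein-coding genes. POU5F1, from which POU5F1B was copied, had none, like POU5F1B itself. Neither had POU5F2, POU3F1, POU3F4, POU4F1, POU4F2 and POU4F3. POU2F1, the widely expressed OCT1, had the highest values, with 57.0 in WT (rank 72), 65.8 in ORC2 deletion (rank 164) and 61.2 in rescue (rank 87). POU2F2, the lymphoid OCT2, had 4 summits in WT, 6 in deletion and 5 in rescue. POU3F2, a neural factor, had 2, 1 and 1, and its highest value was 5.60 in WT (rank 10565), 12.3 in deletion (rank 9232) and 18.1 in rescue (rank 1606). These values need not lie at the same site. The deletion list had more summits than WT at 4 of the 14 (28.6%) and fewer at 1 (7.14%), against 37.6% and 4.27% of all protein-coding genes.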
